A study of Homo sapiens with 9 samples.

Results

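Histone genes were followed in RNA-seq libraries of a human line overexpressing the transcription factor NFE2L1 or a form of it called NFE2L1DC. The members were the rows of the deposited table named HIST1H to HIST4H, the clustered or replication-dependent histone genes, together with 10 named variant histone genes; 12 rows named as pseudogenes were dropped. This gave 85 members, 75 clustered and 10 variant, among 58174 genes. The 3 groups had 3 libraries each: cells overexpressing NFE2L1, cells overexpressing NFE2L1DC, and control cells, whose genotype is labelled WT and which the protocol names after the lentiviral vector pLVX. The protocol writes NFE2L1DC with a delta before the C; the sources used here do not say what the form lacks or whether each line is a clone or a pool. All groups were labelled HepG2, a line from a human liver tumour, and were grown in high-glucose medium with serum.

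The liver markers went against that label. Of 16 hepatocyte and HepG2 markers, 15 were under 1 TPM, a length-scaled abundance relative to the whole library, in every library and 10 were at 0 throughout, ALB among them, while AFP reached at most 0.238 TPM. The remaining marker, FOXA1, had 7.50 to 10.6 TPM in the NFE2L1 libraries, 7.49 to 8.50 TPM in the NFE2L1DC libraries and 7.95 to 14.1 TPM in the control libraries. The cells are therefore called by their group below. Among markers of other cells, 4 of 8 fibroblast markers, 1 of 9 leukocyte markers and 0 of 5 endothelial markers passed the filter for testing.

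Most clustered histone genes sit in groups with genes on both strands. They are transcribed mainly in S phase, when new DNA is packed into nucleosomes. Their mRNAs classically carry no poly(A) tail and end in a short stem-loop that is bound by SLBP and is needed for processing, translation and decay. Variant histone genes lie singly, mostly give spliced or polyadenylated mRNAs, are made outside S phase as well, and supply H2A.Z, H2A.X, macroH2A, H3.3 and the replacement linker histones. The core histones, H2A, H2B, H3 and H4, form the nucleosome particle, and H1 binds the linker DNA.

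The stem-loop is a classical feature of clustered histone mRNAs, though the annotated transcripts show it for only part of the clustered members. It is printed for each of the clustered genes that passed a test between groups and for the variant gene that has it. GENCODE 29 transcripts on GRCh38 were searched along their whole length for 16 bases: a stem of 6 bases opening with GG, a loop of 4 bases opening with TT, and the perfect complement of the stem. In the DNA letters below the capitals mark the stem-loop, and 5 bases are given on each side.

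HIST2H2BE: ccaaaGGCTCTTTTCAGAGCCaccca

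HIST1H2BD: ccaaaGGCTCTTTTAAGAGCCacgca

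HIST3H2A: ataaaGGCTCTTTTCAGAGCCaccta

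HIST2H4A: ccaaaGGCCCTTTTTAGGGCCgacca

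H2AFX: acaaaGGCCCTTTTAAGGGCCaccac

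These copies all lay after the stop codon, and began 56, 36, 40, 35 and 49 bases past it, in the order shown. The transcript of HIST2H2BE continued for 1729 bases beyond the stem-loop, that of H2AFX for 821 and that of HIST3H2A for 390, whereas the HIST1H2BD transcript that carried it ended 39 bases later. Of 74 clustered members with an annotation, 32 had the stem-loop. It lay after the stop codon in 31 of them, and the other, HIST3H2BA, has no coding transcript. Of the 42 without it, 34 have coding transcripts annotated with no bases after the stop codon and 2 have no coding transcript. Of the 10 variant members only H2AFX had it, and 0.346% of all 58676 annotated genes had a match anywhere in a transcript. No match says only that these letters are absent from the annotated transcript. HIST1H2BK and HIST1H1C are annotated as coding sequence alone, and their TPM is a level per that short length if the authors used a like annotation.

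Promoters are shown for a variant linker gene that was lower in both overexpressing lines (H1FX), for the clustered gene lowered with the smallest adjusted p (HIST2H2BE), and for the most abundant clustered linker gene (HIST1H1C). Each is the 250 bases before the annotated start in RefSeq (GRCh38.p14), read 5′ to 3′ on the gene's strand, here the minus strand for all. They lie at chr3:129316287-129316536, chr1:149886683-149886932 and chr6:26056471-26056720. Capitals mark the TATA motif TATAAA on either strand. They also mark the CCAAT box and the octamer ATTTGCAT. The H1 box is AAACACA and is marked in the same way, its reverse strand included.

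H1FX: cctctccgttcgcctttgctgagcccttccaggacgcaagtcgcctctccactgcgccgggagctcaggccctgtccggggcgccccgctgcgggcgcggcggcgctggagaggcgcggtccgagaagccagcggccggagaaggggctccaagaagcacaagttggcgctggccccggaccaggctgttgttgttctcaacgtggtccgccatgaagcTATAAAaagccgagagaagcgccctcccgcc

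HIST2H2BE: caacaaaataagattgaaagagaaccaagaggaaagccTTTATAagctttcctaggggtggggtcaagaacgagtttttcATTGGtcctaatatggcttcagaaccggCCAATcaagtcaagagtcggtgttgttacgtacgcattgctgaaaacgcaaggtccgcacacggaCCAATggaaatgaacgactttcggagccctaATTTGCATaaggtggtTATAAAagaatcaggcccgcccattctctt

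HIST1H1C: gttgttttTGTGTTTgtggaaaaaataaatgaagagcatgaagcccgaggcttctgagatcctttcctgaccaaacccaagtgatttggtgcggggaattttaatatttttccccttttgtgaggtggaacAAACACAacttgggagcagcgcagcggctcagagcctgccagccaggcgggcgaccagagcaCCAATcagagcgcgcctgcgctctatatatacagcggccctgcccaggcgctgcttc

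A promoter was found for 70 of the 85 members. The H1 box was present in 6 of 6 clustered H1 promoters and in 0 of 9 variant promoters, against 4.82% of 35116 promoters. No promoter was found for H1F0, so the variant counts here leave it out. H1FX was the only variant H1 gene searched. The octamer, a motif known from H2B promoters, was in 14 of 18 H2B and 11 of 14 H2A promoters, against 1.63% of all. CCAAT was in 51 of 61 clustered and 6 of 9 variant promoters (32.0% of all), and TATAAA in 40 of 61 and 4 of 9 (10.7% of all). The core of the antioxidant response element, TGACNNNGC, to which NFE2L1 is known to bind with small MAF proteins, was in 3 of 61 clustered and 0 of 9 variant promoters, against 10.9% of all. These are matches of letters in a window, not sites of binding.

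Histone transcripts were unevenly shared. Variant genes held the higher levels: 9 of the 10 had a mean over 100 TPM, and the exception was H2AFY2, which encodes macroH2A2 and averaged 0.0252 TPM. Of the 75 clustered genes, 2 averaged over 100 TPM, 6 between 10 and 100 TPM, 30 between 1 and 10 TPM and 37 under 1 TPM, 9 of these at 0 in every library. Among the 37 were the testis gene HIST1H1T at 0.0158 TPM and HIST1H1D at 0. In bulk RNA, fewer expressing cells and less RNA per cell cannot be told apart. Clustered mRNAs classically carry no poly(A) tail, and the part of library preparation in the gap between clustered and variant levels was not tested.

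HIST1H2BK, an H2B gene known to give polyadenylated as well as stem-loop transcripts, was the most abundant clustered member in each library. It had 236, 251 and 244 TPM in the NFE2L1 libraries, 244, 268 and 262 TPM in the NFE2L1DC libraries and 242, 263 and 244 TPM in the control libraries. The groups overlapped. It made up 39.3% to 39.9% of the clustered sum in NFE2L1 libraries, 40.4% to 42.9% in NFE2L1DC libraries and 36.0% to 36.2% in control libraries. With HIST1H1C, HIST1H2AC, HIST1H2BC, HIST1H2BD, HIST1H2BJ, HIST2H2BE and HIST4H4, it belongs to 8 clustered genes listed as giving polyadenylated transcripts. Those 8 took 66.4% to 68.1% of the clustered sum in NFE2L1 libraries, 65.6% to 66.1% in NFE2L1DC libraries and 64.7% to 65.1% in control libraries. Whether poly(A) RNA was selected is not stated in the labels.

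**Figure D1:**
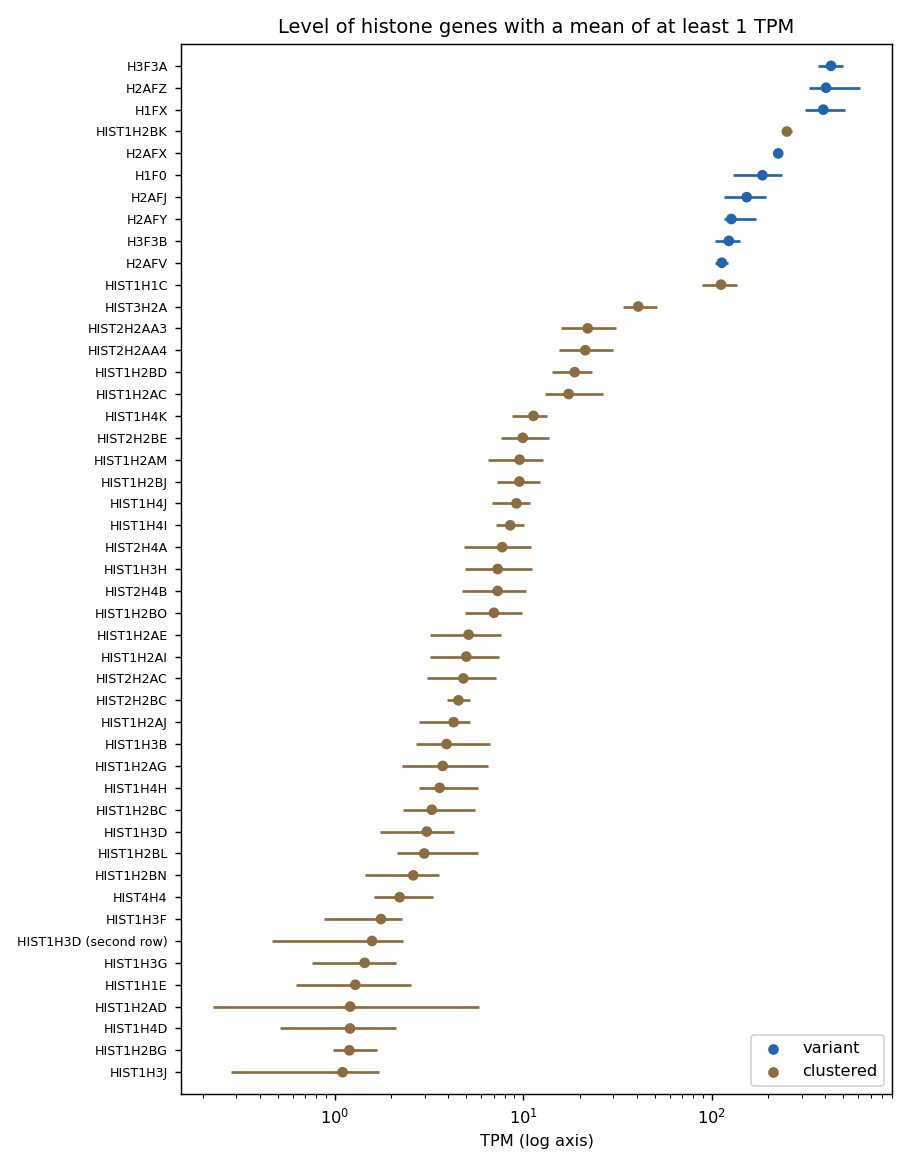
Mean TPM over the 9 libraries on a log axis (points) with the lowest and highest library (lines), for histone genes with a mean of at least 1 TPM; blue marks variant and brown clustered genes. The 9 variant genes shown fill the upper part with HIST1H2BK among them, and HIST1H1C follows.

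Clustered genes often lie in divergent pairs around a shared stretch of promoter, and the levels within pairs were compared. There were 13 pairings of clustered genes on opposite strands with starts 219 to 357 bases apart, and in 8 both genes were tested. In 4 of these 8 the means differed by more than 3 times. The pairings are not all separate promoters. HIST1H2BO was counted with both HIST1H3J and HIST1H2AM, whose annotated spans overlap. Its mean differed 6.35 times from that of HIST1H3J and 1.37 times from that of HIST1H2AM. HIST1H2BF was counted with both HIST1H2AD and the overlapping second row of HIST1H3D. HIST1H2BK averaged 250 TPM and its partner HIST1H2AH 0.885 TPM, while HIST1H2AC averaged 17.4 TPM and its partner HIST1H2BC 3.28 TPM. HIST2H2BE at 9.96 TPM and HIST2H2AC at 4.82 TPM were closer. Outside the 8, HIST3H2A averaged 40.8 TPM beside HIST3H2BB at 0.722 TPM. HIST1H2BK is listed as giving polyadenylated transcripts and HIST1H2AH is not, and both are annotated as coding sequence alone. The part of poly(A) tails and of annotation in these gaps was not tested.

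Some levels cannot be divided safely between copies. HIST2H2AA3 and HIST2H2AA4, HIST2H4A and HIST2H4B, and HIST2H3A and HIST2H3C have identical coding sequences, and within each pair the shorter annotated transcript is contained in the longer, so the split of reads between them is uncertain. HIST1H4J and HIST1H4K also have identical coding sequences, and the split of reads between these genes is uncertain too. HIST1H3D has 2 rows, of which the second overlaps HIST1H2AD. The processed pseudogene H3F3AP4 had 83.0 to 114 TPM over the libraries, so that reads of H3F3A may have been divided. Strandedness is not given, so reads of H1FX and of its antisense gene H1FX-AS1 (1.40 to 4.82 TPM) cannot be told apart, nor those of H3F3B and the overlapping UNK (27.2 to 33.5 TPM), nor those of HIST2H4A and HIST2H3C (0.723 to 1.25 TPM).

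For tests, genes reaching 1 TPM in at least 3 of the 9 libraries were fitted on log2(TPM + 1) in limma, with Benjamini-Hochberg adjustment over all 14118 genes tested and a threshold of 0.05. Among members 42 of 75 clustered and 9 of 10 variant genes passed this filter. The lowest clustered mean inside it was that of HIST1H2BI at 0.804 TPM, and the highest outside was that of HIST1H2AD at 1.21 TPM, of which 1 library held 5.81 TPM. Log2 fold changes on this scale understate changes of genes near or under 1 TPM. Nothing in the labels says that replicates came from separate cultures; the p-values cover the spread between these libraries, which may be technical. Both overexpressing lines were compared with the same 3 control libraries.

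The overexpressed gene was high where labelled: NFE2L1 had 207, 181 and 354 TPM in NFE2L1 libraries, 445, 427 and 472 TPM in NFE2L1DC libraries and 104, 81.7 and 64.0 TPM in control libraries. Whether reads of the introduced and the native gene were counted alike was not tested. Control replicate 3 and NFE2L1DC replicate 1 stood apart from their groups. On the first principal component control replicates 1 and 2 lay at -43.75 and -43.77 and replicate 3 at 4.96, while NFE2L1DC replicate 1 lay at 19.17 and replicates 2 and 3 at -1.245 and 0.64. The median log2 fold change of all genes tested was 0.17 for NFE2L1 over control and 0.12 for NFE2L1DC over control. Median-of-ratios scaling moved these medians to 0.02 and 0.02.

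Summed over members in TPM as deposited, the clustered genes were lower in each overexpressing library than in any control library, but under median-of-ratios scaling this held for NFE2L1 alone. The clustered sum was 592, 631 and 621 TPM in NFE2L1 libraries, 591, 625 and 648 TPM in NFE2L1DC libraries and 672, 728 and 674 TPM in control libraries. The variant sum was 2154, 2196 and 2066 TPM in NFE2L1 libraries, 2267, 1943 and 2097 TPM in NFE2L1DC libraries and 2090, 2133 and 2435 TPM in control libraries, and these groups overlapped. Under median-of-ratios scaling the clustered sum was 551, 595 and 577 in NFE2L1 libraries, 546, 637 and 645 in NFE2L1DC libraries and 756, 830 and 621 in control libraries. NFE2L1DC replicates 2 and 3 then lay above control replicate 3. The scaled variant sum was 1920 to 2071 in NFE2L1 libraries, 1978 to 2095 in NFE2L1DC libraries and 2243 to 2434 in control libraries, so that both lines then lay below control for the variants too. The clustered sum was 27.5% to 30.1% of the variant sum in NFE2L1 libraries, 26.1% to 32.2% in NFE2L1DC libraries and 27.7% to 34.1% in control libraries, also with overlap. No test was made on these sums.

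By class, the clustered H4 sum was 48.3 to 53.0 TPM in NFE2L1 libraries, 48.3 to 54.6 TPM in NFE2L1DC libraries and 56.2 to 60.4 TPM in control libraries, with no overlap between either line and control, also under median-of-ratios scaling. H4 has no variant among the members. The clustered H2A sum likewise did not overlap with control in TPM as deposited, at 123 to 128 TPM in NFE2L1 libraries, 126 to 145 TPM in NFE2L1DC libraries and 149 to 164 TPM in control libraries; under that scaling NFE2L1DC replicate 3 at 144 lay above control replicate 3 at 138. For clustered H2B the control libraries overlapped with NFE2L1DC but not with NFE2L1, at 294 to 309 TPM in NFE2L1 libraries, 304 to 328 TPM in NFE2L1DC libraries and 311 to 335 TPM in control libraries. Clustered H3 was a small sum, 17.0 to 23.8 TPM in NFE2L1 libraries, 21.6 to 22.9 TPM in NFE2L1DC libraries and 23.3 to 31.0 TPM in control libraries, and NFE2L1 overlapped with control in TPM as deposited but not under that scaling. H3F3A and H3F3B, the H3.3 genes, together held 538 to 573 TPM in NFE2L1 libraries, 475 to 608 TPM in NFE2L1DC libraries and 501 to 616 TPM in control libraries. RNAs that lack a poly(A) tail, which track library preparation, summed to 102, 80.3 and 44.5 TPM in NFE2L1 libraries, 102, 134 and 265 TPM in NFE2L1DC libraries and 158, 124 and 66.8 TPM in control libraries. These sums overlapped between all groups, those of NFE2L1 and NFE2L1DC only at 102 TPM. With MALAT1 and NEAT1 added, 9 such RNAs were tested, and limma called 0 between NFE2L1 and NFE2L1DC. At an unadjusted p under 0.05 in that fit, 5 of the 9 were lower with NFE2L1 and 0 higher. For all genes tested the shares at that p were 2.39% lower and 5.8% higher. The part of these RNAs in the clustered sums was not tested.

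**Figure D2:**
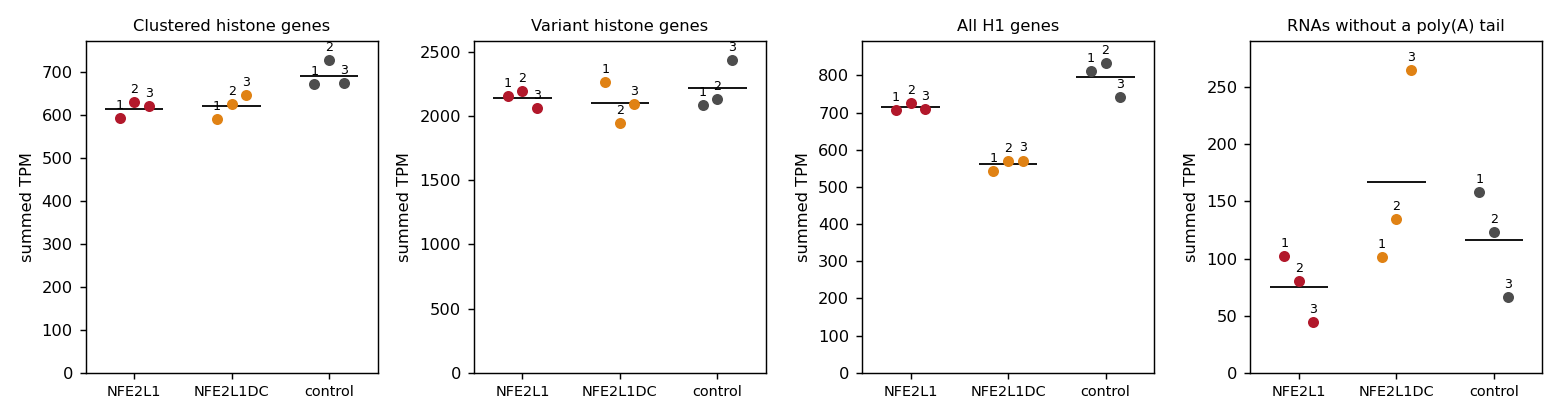
Summed TPM per library, numbered by replicate, with the group mean as a line, for clustered, variant and all H1 histone genes and for RNAs without a poly(A) tail. In these unscaled values clustered sums of both overexpressing lines lie below the lowest control at 672 TPM, H1 sums form 3 separate ranges, and the other panels overlap; under median-of-ratios scaling NFE2L1DC overlaps with control in the clustered sum, NFE2L1 overlaps with control in the H1 sum, and the variant sums of both lines lie below control.

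The comparison of NFE2L1 with control asks what overexpression of the full form does to the transcriptome. Of the 42 clustered genes tested, 0 rose and 3 fell, HIST2H2BE, HIST2H4A and HIST3H2A, and of the 9 variant genes 0 rose and H1FX fell. Over all genes tested 10.4% were called, 7.83% as higher and 2.57% as lower, so the clustered share called lower is to be read against the last value. The median log2 fold change was -0.17 for clustered and 0.03 for variant genes, beside 0.17 for all genes tested, and 30 of the 42 clustered values were negative. Libraries of the groups did not overlap for 13 clustered genes that were lower and 1 that was higher, where 9.53% and 22.6% of all genes tested did so. Under median-of-ratios scaling these counts were 16 lower and 0 higher, where 13.5% and 14.5% of all genes tested did so. At an unadjusted p under 0.05 in the limma fit, 10 clustered genes were lower and 1 was higher, and 1 variant gene was lower and 2 were higher. Of all genes tested 7.42% were lower and 23% higher at that p.

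HIST2H2BE, an H2B gene with a long transcript beyond its stem-loop, had 8.81, 8.18 and 7.61 TPM in NFE2L1 libraries and 13.6, 12.6 and 12.6 TPM in control libraries. Each NFE2L1 library lay below each control library. Its log2 fold change was -0.60 ± 0.12 (SE, limma adjusted p = 0.0194), and it was called in 14 of 19 other settings, losing the call when any single NFE2L1 library, control replicate 1 or control replicate 2 was left out, with adjusted p up to 0.0824. HIST2H4A, an H4 gene, had 6.20, 7.32 and 4.88 TPM in NFE2L1 libraries and 10.1, 11.0 and 9.58 TPM in control libraries, again without overlap. Its log2 fold change was -0.67 ± 0.16 (SE, limma adjusted p = 0.0299). The call was kept in 12 of 19 other settings, and those that lost it, with adjusted p up to 0.108, included leaving out NFE2L1 replicate 1 or 3 or control replicate 1 or 2. Its identical copy HIST2H4B had 7.13, 4.85 and 7.84 TPM in NFE2L1 libraries and 6.21, 10.3 and 10.1 TPM in control libraries, which overlapped.

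HIST3H2A, an H2A gene outside the large cluster on chromosome 6, had 36.9, 36.8 and 33.8 TPM in NFE2L1 libraries and 51.5, 47.0 and 41.3 TPM in control libraries. The groups did not overlap, and the lowest control was replicate 3. Its log2 fold change was -0.37 ± 0.10 (SE, limma adjusted p = 0.0477); it was -0.09 with adjusted p = 0.591 after correction for GC content and transcript length, and it was called in 4 of 19 other settings. Clustered genes tested had a median GC content of 57.4%, against 49.1% for variant genes and 49.5% for all genes tested. Across 14085 genes, GC content correlated with a library's deviation from the mean of libraries at rho 0.55 and 0.44 in control replicates 1 and 2 and between -0.38 and 0.16 in the other libraries. After the correction the clustered median for NFE2L1 over control was -0.08, beside 0.17 for all genes.

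Other clustered members of this comparison did not pass the test. HIST1H2AC, an H2A gene with polyadenylated transcripts, averaged 14.3 ± 1.07 TPM in NFE2L1 libraries and 21.0 ± 5.02 TPM in control libraries (SD, n = 3), with a log2 fold change of -0.50 and a limma adjusted p of 0.0764. HIST1H3H and HIST1H3B, the most abundant clustered H3 genes, had log2 fold changes of -0.57 and -0.61 with limma adjusted p of 0.0632 and 0.0933. HIST1H4K and HIST1H4J, the most abundant clustered H4 genes, were at -0.06 and 0.02, with an uncertain split of reads between them. HIST2H2AA3 had 19.2 to 20.0 TPM in NFE2L1 libraries and 22.2 to 31.0 TPM in control libraries, with a limma adjusted p of 0.107. HIST1H2AJ was the clustered gene whose libraries lay wholly higher with NFE2L1, at 4.58 to 5.26 TPM against 2.81 to 3.88 TPM in control libraries (limma adjusted p = 0.0543); it is named here after its values were seen. Under median-of-ratios scaling these groups overlapped.

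Without control replicate 3 the same comparison called 5 clustered genes lower and 1 higher, and 1 variant gene lower and 2 higher. The added calls were HIST2H2AA3 and its copy HIST2H2AA4 at -0.53 and -0.54, HIST1H2AJ at 0.45, H1F0 at 0.31 and H3F3B at 0.33 (log2 fold changes). Over all genes that setting called 5056 instead of 1468.

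The comparison of NFE2L1DC with control used the same control libraries. Of the 42 clustered genes tested, 0 rose and 1 fell, HIST1H2BD, and of the 9 variant genes 0 rose and 2 fell, H1F0 and H1FX. Over all genes tested 3.61% were called, 2.06% as higher and 1.54% as lower. The clustered median was -0.15 and the variant median 0.02, beside 0.12 for all genes, but after correction for GC content and length the clustered median was 0.01. Libraries did not overlap for 12 clustered genes that were lower and 4 that were higher, where 8.98% and 13.7% of all genes tested did so. Under median-of-ratios scaling these counts were 10 lower and 1 higher, where 9.99% and 9.61% of all genes tested did so. At an unadjusted p under 0.05 in the limma fit, 9 clustered genes were lower and 2 were higher, and 2 variant genes were lower and 0 higher. Of all genes tested 7.26% were lower and 14.5% higher at that p.

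HIST1H2BD, an H2B gene known to give a polyadenylated as well as a stem-loop transcript, had 16.6, 14.2 and 17.0 TPM in NFE2L1DC libraries and 21.8, 23.2 and 22.1 TPM in control libraries. All NFE2L1DC libraries lay below all control libraries. The log2 fold change was -0.47 ± 0.11 (SE, limma adjusted p = 0.0455), and the call was kept in 6 of 19 other settings, with adjusted p from 0.0174 without control replicate 3 to 0.158 without control replicate 2. In NFE2L1 libraries it had 18.6, 17.1 and 18.3 TPM, also below control, with a limma adjusted p of 0.0972. HIST2H2BE had 8.38, 8.01 and 9.89 TPM in NFE2L1DC libraries, below each control library, with a log2 fold change of -0.52 and a limma adjusted p of 0.056. Without control replicate 3 this comparison called 7 clustered genes lower, HIST1H1C, HIST1H2BD, HIST2H2AA3, HIST2H2AA4, HIST2H2BE, HIST2H4A and HIST3H2A, and 1 higher, HIST1H4C, and 3440 genes in all instead of 509.

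The full form was then compared directly with NFE2L1DC. Of the 42 clustered genes 0 rose and 0 fell, and of the 9 variant genes 1, H1F0, rose, where 0.793% of all genes tested were called, 0.715% as higher and 0.0779% as lower. The limma fit at an adjusted p under 0.05 therefore called a single histone gene between the lines; at an unadjusted p under 0.05, 1 clustered gene was higher and 1 lower, and 2 variant genes were higher and 0 lower, where 5.8% of all genes tested were higher and 2.39% lower. The clustered median was -0.05 and the variant median -0.0033, beside 0.06 for all genes. Libraries did not overlap for 3 variant genes that were higher with NFE2L1, H1F0, H1FX and H3F3B, and for 1 clustered gene higher and 5 lower, where 12.4% of all genes tested were wholly higher and 5.55% wholly lower. Under median-of-ratios scaling H1FX overlapped between the lines, and the clustered counts were 0 higher and 5 lower. With that scaling 8.86% of all genes tested were wholly higher and 8.57% wholly lower.

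**Figure D3:**
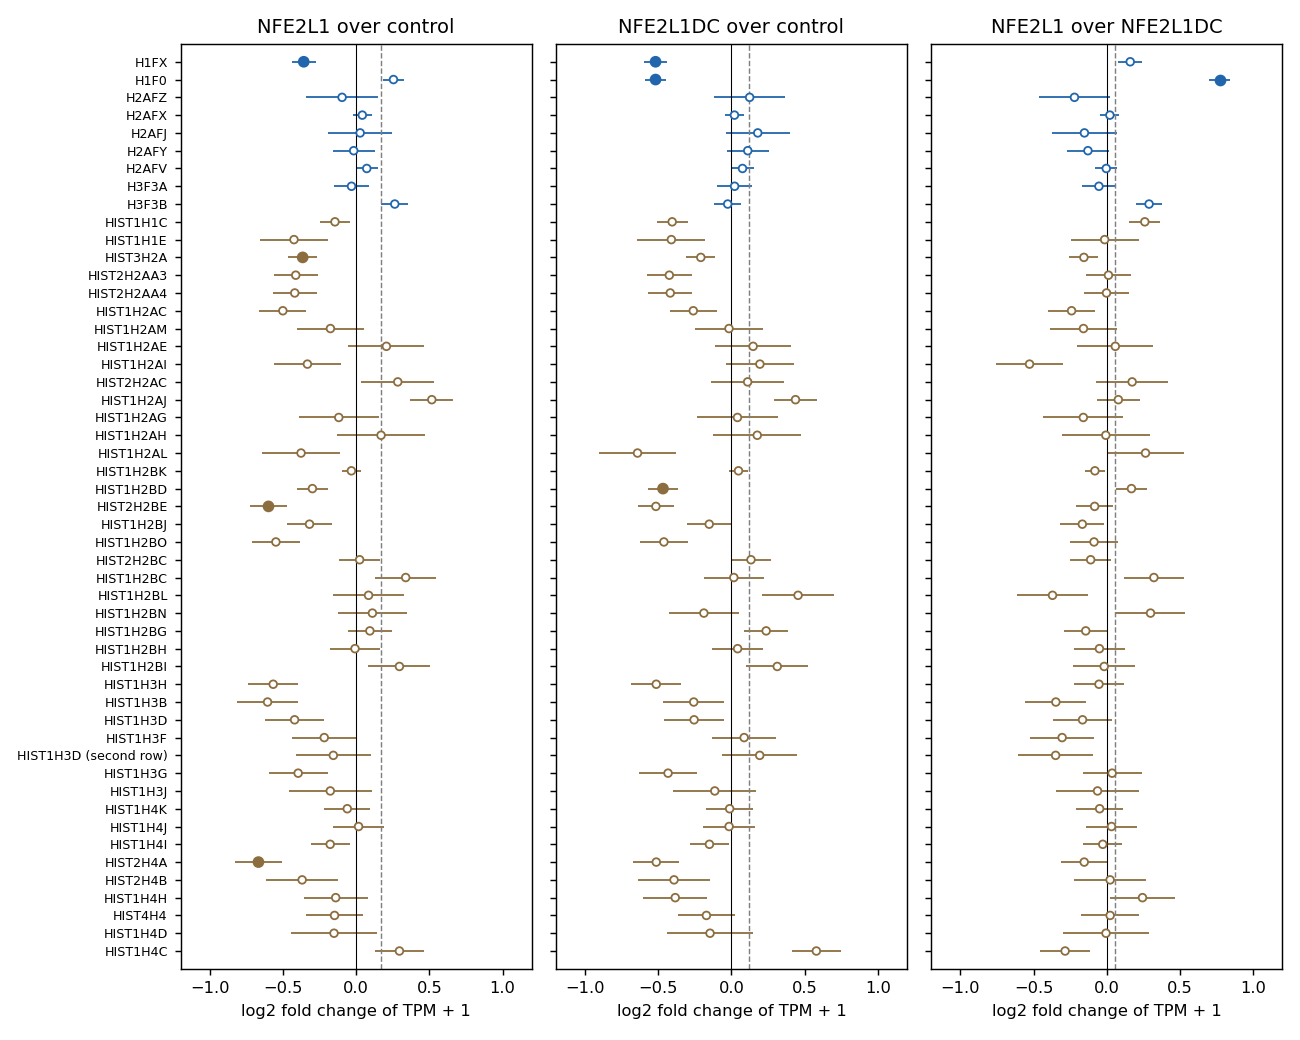
Log2 fold change of TPM + 1 with its standard error for the 51 histone genes tested, in 3 comparisons; blue marks variant and brown clustered genes, filled points passed the limma test at an adjusted p under 0.05, and the dashed line is the median of all genes tested. Filled points stand at H1FX and H1F0 among the variants and at HIST2H2BE, HIST2H4A, HIST3H2A and HIST1H2BD among the clustered genes.

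Linker histones carried the largest differences between groups among the variant genes. H1 proteins bind where DNA enters and leaves the nucleosome. H1F0 encodes the replacement linker histone H1.0, known to accumulate in cells that stop dividing or differentiate, and H1FX encodes H1X. H1F0 (chr22:37805093-37807436, plus strand, in GENCODE 29) had 237, 229 and 225 TPM in NFE2L1 libraries, 140, 129 and 134 TPM in NFE2L1DC libraries and 183, 189 and 208 TPM in control libraries. In TPM as deposited the 3 groups did not overlap: NFE2L1 was highest, control in the middle and NFE2L1DC lowest. Under median-of-ratios scaling NFE2L1 at 209 to 220 overlapped with control at 191 to 215, and NFE2L1DC at 130 to 133 stayed below both.

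For H1F0 the mean of NFE2L1 libraries was 1.71 times that of NFE2L1DC libraries, with a log2 fold change of 0.77 ± 0.07 (SE, limma adjusted p = 0.00143). That call was kept in each of 19 other settings, with log2 fold changes from 0.71 to 0.80. NFE2L1DC libraries were at 0.696 times the control mean, with a log2 fold change of -0.52 ± 0.07 (SE, limma adjusted p = 0.00652), a call kept in 18 of 19 settings. NFE2L1 libraries were at 1.19 times the control mean, with a log2 fold change of 0.25 and a limma adjusted p of 0.0525. That difference was not called; its value was 0.31 with an adjusted p of 0.00964 without control replicate 3, and 0.08 with an adjusted p of 0.637 under median-of-ratios scaling.

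H1FX (chr3:129314771-129316277, minus strand) had 368, 371 and 367 TPM in NFE2L1 libraries, 313, 345 and 333 TPM in NFE2L1DC libraries and 498, 507 and 419 TPM in control libraries. Both overexpressing lines lay wholly below control, and the control nearest to them was replicate 3. The log2 fold change was -0.36 ± 0.08 for NFE2L1 over control (SE, limma adjusted p = 0.0257) and -0.52 ± 0.08 for NFE2L1DC over control (SE, limma adjusted p = 0.0126). The call for NFE2L1 was kept in 8 of 19 other settings, and those that lost it, with adjusted p up to 0.128, included leaving out control replicate 1, control replicate 2 or any single NFE2L1 library. After correction for GC content and length it was -0.17 with an adjusted p of 0.0856. The call for NFE2L1DC was kept in 14 of 19 settings, being lost without control replicate 2, NFE2L1DC replicate 1 or NFE2L1DC replicate 3, under median-of-ratios scaling (limma adjusted p = 0.0648) and with only the groups compared (limma adjusted p = 0.0666). NFE2L1 over NFE2L1DC was 0.16 with a limma adjusted p of 0.677.

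HIST1H1C, the clustered gene for H1.2 and 1 of the 8 with polyadenylated transcripts, was the only clustered linker gene above a mean of 2 TPM. It had 102, 126 and 116 TPM in NFE2L1 libraries, 88.5, 94.0 and 103 TPM in NFE2L1DC libraries and 129, 137 and 114 TPM in control libraries. NFE2L1DC lay below control without overlap, and NFE2L1 overlapped with both. Its log2 fold change was -0.41 for NFE2L1DC over control (limma adjusted p = 0.0679) and -0.15 for NFE2L1 over control (limma adjusted p = 0.367). HIST1H1E, the gene for H1.4, averaged 1.02 ± 0.0693 TPM in NFE2L1 libraries, 1.08 ± 0.528 TPM in NFE2L1DC libraries and 1.77 ± 0.721 TPM in control libraries (SD, n = 3).

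**Figure D4:**
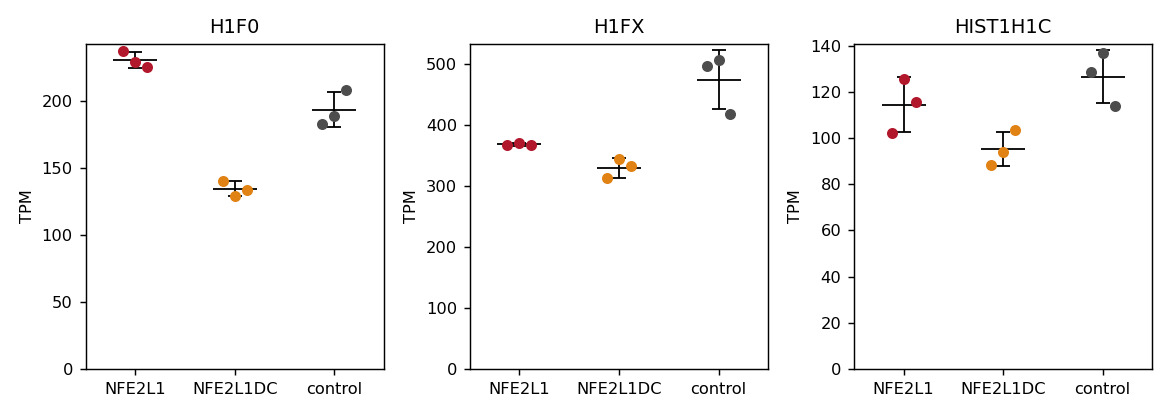
TPM of H1F0, H1FX and HIST1H1C in each library (points) with the group mean and SD of 3 libraries (bars). H1F0 forms 3 ranges, 225 to 237 TPM in NFE2L1, 129 to 140 TPM in NFE2L1DC and 183 to 208 TPM in control libraries, while H1FX is below control in both overexpressing lines; under median-of-ratios scaling H1F0 of NFE2L1 overlaps with control.

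Summed over all H1 genes, TPM was 708, 727 and 709 in NFE2L1 libraries, 543, 569 and 571 in NFE2L1DC libraries and 812, 835 and 742 in control libraries, 3 ranges without overlap. Under median-of-ratios scaling NFE2L1 replicate 2 at 686 lay above control replicate 3 at 683, and NFE2L1DC at 502 to 580 stayed below both groups. H1F0 supplied 31.5% to 33.4% of the H1 sum in NFE2L1 libraries, 22.7% to 25.8% in NFE2L1DC libraries and 22.5% to 28.0% in control libraries, so that NFE2L1DC and control overlapped. H1FX supplied 51.1% to 51.9% in NFE2L1 libraries, 57.6% to 60.6% in NFE2L1DC libraries and 56.5% to 61.3% in control libraries. HIST1H1C supplied 14.4% to 17.3% in NFE2L1 libraries, 16.3% to 18.1% in NFE2L1DC libraries and 15.4% to 16.4% in control libraries. These shares are ratios within a library and do not move with its scaling.

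None of the core variants was called by limma in any of the 3 comparisons. H3F3A and H3F3B encode the same protein, H3.3, which is placed into chromatin outside replication. H3F3B had 138, 142 and 138 TPM in NFE2L1 libraries, 124, 107 and 112 TPM in NFE2L1DC libraries and 104, 117 and 128 TPM in control libraries. NFE2L1 was higher than both other groups without overlap, though under median-of-ratios scaling it overlapped with control. Its log2 fold change of 0.26 over control had a limma adjusted p of 0.0934, and that of 0.29 over NFE2L1DC had 0.36. H3F3A had 427, 432 and 400 TPM in NFE2L1 libraries, 451, 368 and 496 TPM in NFE2L1DC libraries and 397, 406 and 489 TPM in control libraries, with overlap throughout in TPM as deposited. Under median-of-ratios scaling the NFE2L1 libraries of H3F3A, at 371 to 407, lay below the control libraries at 446 to 463.

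Among H2A variants, H2AFX, the source of the H2A.X that is phosphorylated at DNA breaks, was the steadiest, at 227 to 232 TPM in NFE2L1 libraries, 215 to 231 TPM in NFE2L1DC libraries and 213 to 236 TPM in control libraries. H2AFV, the gene for the second H2A.Z protein, had 112 to 120 TPM in NFE2L1 libraries, 108 to 123 TPM in NFE2L1DC libraries and 104 to 112 TPM in control libraries. H2AFZ, the main H2A.Z gene, had 349, 407 and 345 TPM in NFE2L1 libraries, 613, 349 and 364 TPM in NFE2L1DC libraries and 332, 330 and 549 TPM in control libraries. Its highest values were in NFE2L1DC replicate 1 and control replicate 3, the libraries that stood apart on the first component. H2AFY, the macroH2A1 gene, was also highest there, at 171 TPM in NFE2L1DC replicate 1 and 139 TPM in control replicate 3, with the other 7 libraries at 116 to 125 TPM. Under median-of-ratios scaling the NFE2L1 libraries of H2AFY, at 111 to 118, lay below the control libraries at 128 to 132. H2AFJ had 175, 143 and 125 TPM in NFE2L1 libraries, 116, 190 and 195 TPM in NFE2L1DC libraries and 138, 120 and 178 TPM in control libraries. With both libraries left out, H2AFJ was called higher in NFE2L1DC libraries than in control libraries, at a log2 fold change of 0.57 (limma adjusted p = 0.0471).

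Genes that serve histone mRNA and histone protein were read from lists. Of 22 genes of histone mRNA transcription and 3′ processing, 3 rose and 0 fell with NFE2L1, CSTF2, SLIRP and ZNF473, where 7.83% of all genes tested were called higher, with a list median of 0.32 beside 0.17 for all genes. CSTF2, a cleavage factor shared with polyadenylation, had 65.0, 59.5 and 66.5 TPM in NFE2L1 libraries, 59.5, 60.0 and 63.6 TPM in NFE2L1DC libraries and 48.4, 41.5 and 46.8 TPM in control libraries. Its log2 fold change was 0.48 for NFE2L1 over control (limma adjusted p = 0.0123) and 0.42 for NFE2L1DC over control (limma adjusted p = 0.040). SLIRP was higher by 0.40 and 0.41 in those comparisons (limma adjusted p = 0.0146 and 0.0263). It was on the list but is known chiefly as a stabiliser of mitochondrial mRNA. Its calls are included in the list counts for both lines and are not to be read as calls of a histone mRNA factor. ZNF473, which bridges the stem-loop complex and the U7 particle, had 16.1, 14.3 and 14.9 TPM in NFE2L1 libraries and 8.61, 8.56 and 4.88 TPM in control libraries, with a log2 fold change of 0.98 (limma adjusted p = 0.0255). The NFE2L1 calls of CSTF2, SLIRP and ZNF473 were kept in 15, 14 and 13 of 19 other settings. All were lost under median-of-ratios scaling.

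With NFE2L1DC 2 of the 22 rose, CSTF2 and SLIRP, and 0 fell, where 2.06% of all genes tested were called higher. These calls were kept in 7 and 9 of 19 other settings, and both were lost under median-of-ratios scaling. SLBP, which binds the stem-loop, had 57.4, 68.7 and 51.7 TPM in NFE2L1 libraries, 53.9, 44.4 and 51.3 TPM in NFE2L1DC libraries and 39.8, 44.0 and 46.5 TPM in control libraries. NFE2L1 lay above control without overlap, but not under median-of-ratios scaling, with a log2 fold change of 0.43 and a limma adjusted p of 0.0565. NPAT, the activator of clustered histone transcription in S phase, was near the filter at 1.28 ± 0.426 TPM in NFE2L1 libraries, 1.01 ± 0.188 TPM in NFE2L1DC libraries and 0.828 ± 0.503 TPM in control libraries (SD, n = 3). Between the overexpressing lines 0 of the 22 were called by limma, and 0 were under an unadjusted p of 0.05; over control, 11 were higher and 0 lower at that p with NFE2L1, and 9 were higher and 0 lower with NFE2L1DC. The share of all genes tested that was higher at that p was 23% with NFE2L1 and 14.5% with NFE2L1DC.

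Of 23 histone chaperones, 1 rose and 0 fell with NFE2L1, where 7.83% of all genes tested were called higher. It was NASP, a carrier of H1 and of H3 with H4, at 90.7, 81.5 and 83.9 TPM in NFE2L1 libraries and 48.4, 49.2 and 72.6 TPM in control libraries (log2 fold change 0.60, limma adjusted p = 0.0332). Its highest control was replicate 3. The NASP call was kept in 9 of 19 other settings and lost under median-of-ratios scaling. At an unadjusted p under 0.05 in the limma fit, 7 of the 23 were higher with NFE2L1 than control and 0 lower. For all genes these shares were 23% and 7.42%. Limma called 0 of the 23 in either other comparison; at an unadjusted p under 0.05, 5 were higher with NFE2L1DC than control, beside 14.5% of all genes, and 1 with NFE2L1 than NFE2L1DC, beside 5.8% of all genes. Of 42 genes of DNA replication and S phase, 3 rose and 0 fell with NFE2L1, CDC6, MCM10 and UHRF1, with log2 fold changes of 0.76, 1.10 and 0.42, again beside 7.83% of all genes. Their calls were kept in 12, 7 and 12 of 19 other settings, in that order. With NFE2L1DC 1 of the 42 rose, UHRF1, at 0.48, beside 2.06% of all genes, a call kept in 9 of 19. Both UHRF1 calls were lost under median-of-ratios scaling. Between the lines limma called 0, with 2 lower at an unadjusted p under 0.05, beside 2.39% of all genes. At that p, 16 of the 42 were higher and 1 lower with NFE2L1 than control, beside 23% and 7.42% of all genes. With NFE2L1DC over control 15 were higher and 0 lower, beside 14.5% and 7.26% of all genes. Of 20 mitosis genes limma called 0 in any of the 3 comparisons; at an unadjusted p under 0.05, 4 were higher with NFE2L1 than control, beside 23% of all genes, 1 was lower with NFE2L1DC than control, beside 7.26%, and 0 passed between the lines. The S phase list had medians of 0.25 for NFE2L1 and 0.21 for NFE2L1DC over control, beside clustered histone medians of -0.17 and -0.15 and all-gene medians of 0.17 and 0.12.

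Outside the rule, 11 further histone variant genes were looked up and 9 were under 1 TPM in every library. CENPA, the centromeric H3 variant, had 40.6, 40.1 and 35.1 TPM in NFE2L1 libraries, 39.1, 32.3 and 34.9 TPM in NFE2L1DC libraries and 36.2, 45.6 and 49.4 TPM in control libraries, and was not called. Under median-of-ratios scaling NFE2L1 at 32.6 to 37.8 and NFE2L1DC at 32.9 to 36.1 lay below control at 40.7 to 52.1. Among markers of other cells, COL3A1 and PDGFRB were lower with NFE2L1 and COL3A1 with NFE2L1DC, and CD68 was higher with NFE2L1 than with control or NFE2L1DC. The CD68 call between the lines was kept in 1 of 19 other settings, with limma adjusted p up to 0.285. The fibroblast list summed to 92.1 to 106 TPM in NFE2L1 libraries, 86.0 to 102 TPM in NFE2L1DC libraries and 127 to 148 TPM in control libraries, with COL1A2 at 0 in every library and LUM, THY1 and PDGFRA under 1 TPM. The leukocyte list, with PTPRC and 6 others at 0 throughout, summed to 34.1 to 41.7 TPM in NFE2L1 libraries, 24.5 to 26.6 TPM in NFE2L1DC libraries and 22.4 to 23.1 TPM in control libraries. The part of these markers in the histone results was not tested.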

How the data were processed

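RNA from 9 libraries in 3 groups was sequenced by a company on a platform written HiseqNOVA, per the labels' protocols. The authors deposited TPM, abundances scaled for length and to 1 fixed total per library; CASAVA and GRCh38 are named in the submitters' processing notes, and these sources name no aligner, quantifier, annotation or strandedness. No counts were used, so depth is unknown and no counting interval is given; the spread between 3 libraries is the only error. TPM is relative: a change in abundant genes shifts all others.

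The table was fitted whole in limma 3.58.1 (R 4.3.3) on log2(TPM + 1), which replaced a planned count test, with a filter of 1 TPM in 3 libraries, 1 mean per group, a variance trend and 2-sided contrasts; p-values were adjusted by Benjamini-Hochberg over 14118 genes. The fit was tested on simulated data. Alternatives were another pseudocount, other filters, median-of-ratios scaling, GC and length correction, a replicate block, only the groups compared, no trend and leaving out libraries. Genes were matched by identifier to GENCODE 29 (57836 found); 1 member had no entry and 3 are annotated there as pseudogenes.

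The members and lists were chosen with earlier results of these data known. Named were all variants, the 2 most abundant tested members per clustered class, the called clustered members of largest change, the 8 genes with polyadenylated transcripts, the members at the filter's edge, NFE2L1, SLBP, NPAT, CENPA and up to 3 called genes per list; copies, neighbours and genes called with a library left out were named after their values were seen.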

Additional observations from a re-analysis of the deposited data

Results flagged for a closer look

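H1F0, the gene of linker histone H1.0, was flagged because the effects of the overexpressed forms differed by a direct test between them. The effect of NFE2L1 over control minus that of NFE2L1DC over control was 0.773 on the log2(TPM + 1) scale (limma adjusted p = 0.00143 over all genes), higher in 3 of 3 NFE2L1 libraries than in any NFE2L1DC library. In TPM as deposited the control libraries lay between the lines, while under median-of-ratios scaling they overlapped with NFE2L1. Their part cancels in this difference.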

How the results depend on the processing

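The clustered and variant counts were small and moved with most settings. For NFE2L1 against control, 1468 genes, 3 clustered and 1 variant histone genes were called; leaving out each library gave 501 to 5056, 0 to 6 and 0 to 3. For NFE2L1DC against control, 509, 1 and 2 were called, and leaving out each library gave 110 to 3440, 0 to 8 and 1 to 2. For NFE2L1 against NFE2L1DC, 112 genes were called, with 36 to 148. The difference of NFE2L1 itself between the lines was -0.92, with -1.21 to -0.72. The cause of these changes was not tested.

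For NFE2L1 against control the clustered count was 1 with no filter, 1 with only the groups compared and 5 with median-of-ratios scaling. The variant count was 0 with no filter, median-of-ratios scaling, GC and length correction, that correction with the block, only the groups compared, and no variance trend. Over all genes, no filter gave 947 and only the groups compared 881. The variant median moved to -0.15 with scaling and -0.11 with GC and length correction, also with the block. For NFE2L1DC against control the clustered count was 2 with GC and length correction, and 0 with only the groups compared and with no variance trend, and the variant count was 1 with scaling and 1 with only the groups compared. Over all genes the counts were 294 with scaling, 100 with only the groups compared and 313 with no variance trend, and the variant median was -0.090 with scaling. For NFE2L1 against NFE2L1DC scaling gave 70 genes. With both libraries that stand apart left out, an alternative chosen after seeing the data, NFE2L1 against control called 5328 genes, 7 clustered and 3 variant, and NFE2L1DC against control 2230, 6 and 3.

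Replicate numbers did not pair the samples: same-numbered deviations correlated at -0.19 to 0.11, and no label gives the numbers a meaning. With the replicate block the counts were 872 genes and 1 clustered for NFE2L1 against control, 198 and 0 for NFE2L1DC against control, and 58 for NFE2L1 against NFE2L1DC. With the block and the GC and length correction, NFE2L1DC against control called 0 clustered and 1 variant gene, and H1F0 lost its call there (-0.47, limma adjusted p = 0.0839).

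Median-of-ratios scaling moved the mean clustered sum to 574 in NFE2L1, 609 in NFE2L1DC and 736 in control libraries, and the variant sum to 1998, 2054 and 2342 in that order. Without the most abundant member of each kind the clustered sums averaged 371 TPM in NFE2L1, 363 TPM in NFE2L1DC and 442 TPM in control libraries, the variant sums 1719, 1664 and 1789 TPM in that order, and the clustered sum 21.6%, 22.0% and 24.8% of the variant sum. Depth is unknown, so levels near 1 TPM carry an unstated counting error.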
